A study of Mus musculus with 2 samples.

Results

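The Hox genes of the mouse were read from a table of gene expression in primary embryonic fibroblasts. Members were the table's rows in which any comma-separated part of the name is a Hox symbol of cluster A, B, C or D with a number. This gave 36 of 25430 distinct names, and they covered 39 Hox genes. The 35 rows described here cover 38 Hox genes. Of the 35 rows, 3 joined neighbouring Hox genes (Hoxa5,Hoxa6, Hoxb5,Hoxb6 and Hoxc5,Hoxc6) and 1 joined Hoxb9 with Gm53, so each joined row has a single value for its genes together. No member name was repeated.

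One library came from fibroblasts labelled knockout for Sptbn1, here Sptbn1-/- cells, and the other from wild-type fibroblasts, here WT cells. Sptbn1 encodes beta-2 spectrin (β2SP), a protein of the membrane skeleton. Both came from E13.5 embryos of Sptbn1+/- matings and were grown in DMEM/F12 with 10% fetal bovine serum, and each genotype had 1 library. Values are FPKM, fragments scaled to transcript length and to the number of mapped fragments, so levels of different genes can be set side by side. With 1 library per genotype there was no test, and every difference compares 2 libraries and not 2 genotypes. In such bulk RNA, fewer cells expressing a gene and less RNA per cell cannot be told apart, and the part of the body that each culture came from is not given in the sources used here.

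Hox genes encode transcription factors that bind DNA through a homeodomain. They lie in clusters in which gene order follows position along the body: genes at the 3′ end (low numbers) are expressed towards the head, and genes at the 5′ end (high numbers) towards the tail and in the distal limb. Genes with the same number in different clusters are paralogues with related roles. Fibroblasts in culture are known to keep a Hox pattern that reflects where in the body they came from. By RefSeq the Hoxa cluster lies on chromosome 6, Hoxb on chromosome 11, Hoxc on chromosome 15 and Hoxd on chromosome 2. Sptbn1 also lies on chromosome 11.

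Sptbn1 had 36.6 FPKM in Sptbn1-/- cells and 69.6 FPKM in WT cells, 52.5% of the WT value, so its transcript was not absent from the library labelled knockout. The deleted part of the allele is not given in the sources used here and a gene-level FPKM does not show it, so the name Sptbn1-/- rests on the label. Summed over a list of 15 fibroblast markers, FPKM were 3845 in Sptbn1-/- cells and 4039 in WT cells, and all 15 were above 1 FPKM. Summed over 15 macrophage markers, FPKM were 818 in Sptbn1-/- cells and 1308 in WT cells. Most of both sums was Lyz2, at 572 FPKM in Sptbn1-/- cells and 979 FPKM in WT cells. Of the 15, 13 were lower in Sptbn1-/- cells, and 2 were higher, Ptprc and Aif1. Among all 11070 genes averaging at least 1 FPKM over the libraries, 63.1% were lower. The part of the macrophage markers in the Hox values was not tested. Summed FPKM were 1.07 in Sptbn1-/- cells and 1.23 in WT cells for 6 endothelial markers, and 1.82 in Sptbn1-/- cells and 2.12 in WT cells for 7 epithelial ones. They were 53.4 in Sptbn1-/- cells and 39.4 in WT cells for 8 neural and glial markers, and 8.59 in Sptbn1-/- cells and 4.79 in WT cells for 6 cartilage ones. For 6 skeletal muscle markers they were 11.2 in Sptbn1-/- cells and 13.6 in WT cells, with Myod1 and Myog, which define the lineage, at 0 in both. For 3 erythroid markers they were 4.06 in Sptbn1-/- cells and 3.19 in WT cells, with Hba-a1 and Hbb-b1 at 0 in both.

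Promoter sequences of RefSeq (GRCm38.p6, 250 bases before to 50 after each gene start) were at hand for 22 of the 38 Hox genes. They are shown for Hoxd13 and Hoxa11, 2 of the rows with a mean of 0.3 to under 1 FPKM whose FPKM differed at least 2-fold between the libraries, and for Hoxd8, the Hox gene with the highest level among those with a promoter sequence. Capitals mark TAAT, the core of many homeodomain sites, and TATAAA, the TATA box, on either strand. They lie at chr2:74667975-74668274 (plus strand), chr6:52245761-52246060 (minus strand) and chr2:74704365-74704664 (plus strand).
Hoxd13: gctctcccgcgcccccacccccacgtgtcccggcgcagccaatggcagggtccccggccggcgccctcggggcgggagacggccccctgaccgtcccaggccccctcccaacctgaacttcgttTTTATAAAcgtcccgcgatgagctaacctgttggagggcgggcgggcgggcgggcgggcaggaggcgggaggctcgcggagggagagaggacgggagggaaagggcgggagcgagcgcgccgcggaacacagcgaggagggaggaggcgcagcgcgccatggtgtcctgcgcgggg
Hoxa11: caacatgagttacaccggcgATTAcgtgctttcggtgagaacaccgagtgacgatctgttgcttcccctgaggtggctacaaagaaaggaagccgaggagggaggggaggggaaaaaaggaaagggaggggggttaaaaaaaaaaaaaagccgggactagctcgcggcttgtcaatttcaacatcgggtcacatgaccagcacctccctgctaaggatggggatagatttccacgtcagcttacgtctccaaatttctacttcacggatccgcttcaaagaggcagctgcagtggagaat
Hoxd8: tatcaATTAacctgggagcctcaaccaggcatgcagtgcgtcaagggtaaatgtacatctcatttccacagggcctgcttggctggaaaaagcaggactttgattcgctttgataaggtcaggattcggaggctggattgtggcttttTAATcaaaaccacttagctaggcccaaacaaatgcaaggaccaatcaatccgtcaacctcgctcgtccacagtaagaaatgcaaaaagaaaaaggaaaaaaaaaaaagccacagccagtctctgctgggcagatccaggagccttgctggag

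The Hoxd13 window held no TAAT, whereas the Hoxa11 window held 1 and the Hoxd8 window 2. Hoxd13 was the only one of the 3 windows with TATAAA, found on both strands over overlapping bases. The Hoxd13 window was also the richest of the 3 in CG dinucleotides, with 37, against 15 for Hoxa11 and 6 for Hoxd8. TAAT was present in 79.2% of 24 Hox promoter windows and in 58.0% of all 32851 windows of that length. TATAAA was present in 16.7% of the Hox windows and 13.6% of all windows. The composite site TGATNNAT, known for HOX proteins bound with PBX partners, was in none of the 3 windows, in 16.7% of the Hox windows and in 8.85% of all windows. The Hox windows had a median of 14.5 CG dinucleotides, against 7 over all windows.

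Hox rows were expressed at low to moderate levels in both libraries. Of the 35, 19 reached 1 FPKM in Sptbn1-/- cells and 20 in WT cells, and the 19 with a mean of 1 FPKM or more are called measured. Summed over these Hox rows, FPKM were 67.8 in Sptbn1-/- cells and 70.2 in WT cells, 96.5% of the WT sum. Hoxc8, which patterns the thoracic region, was the highest row in both, at 7.95 FPKM in Sptbn1-/- cells and 9.02 FPKM in WT cells. Hoxd8 was at 6.51 FPKM in Sptbn1-/- cells and 7.41 FPKM in WT cells, its rank being 3 among Hox rows of Sptbn1-/- cells and 2 among those of WT cells. The joined row Hoxc5,Hoxc6 was at 7.09 FPKM in Sptbn1-/- cells and 6.47 FPKM in WT cells, and Gm53,Hoxb9 at 5.83 FPKM in Sptbn1-/- cells and 6.31 FPKM in WT cells. These 4 rows were at the top of both libraries, and 9 of the 10 highest rows were shared.

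**Figure D1:**
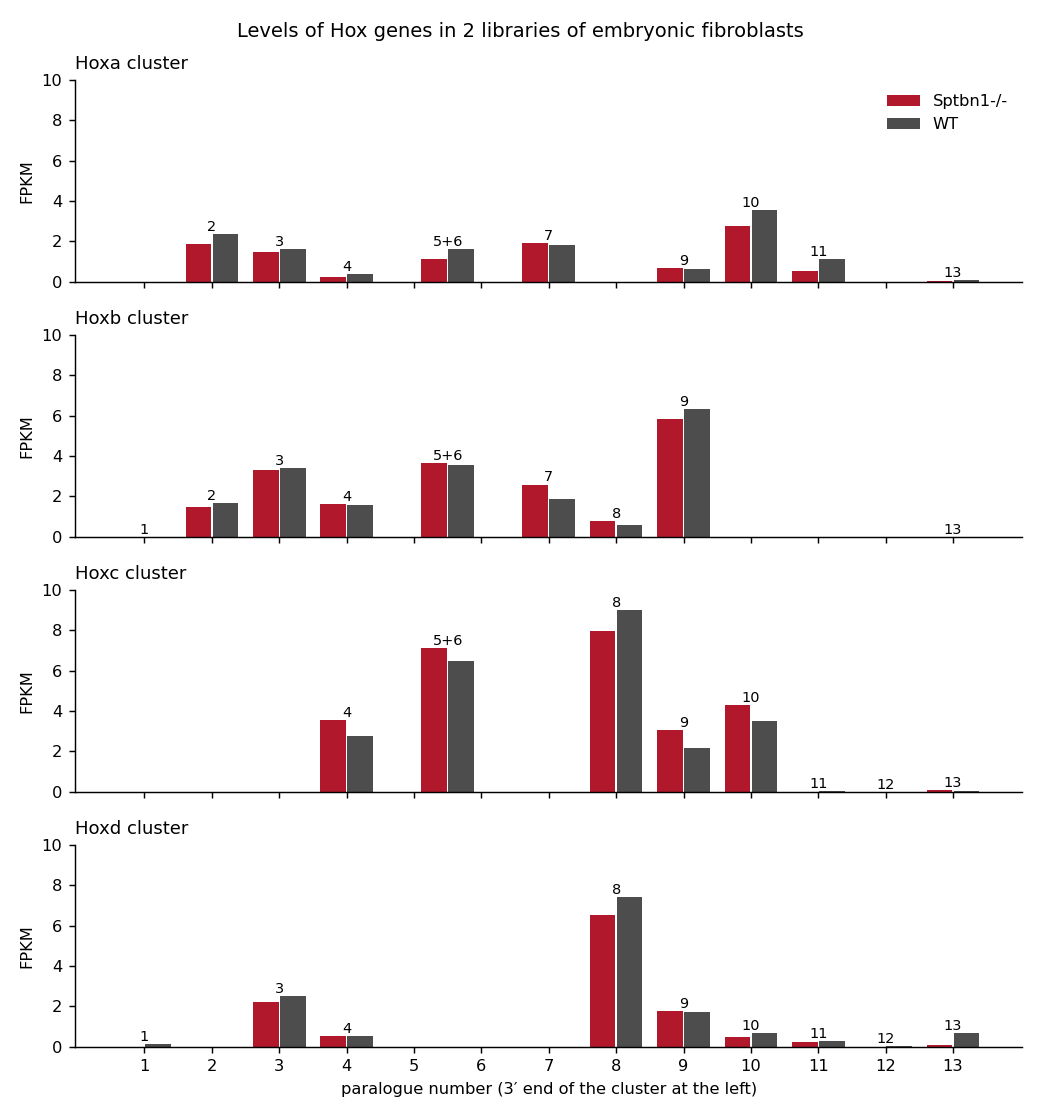
FPKM (linear axis) of each Hox row by cluster and paralogue number, with Sptbn1-/- cells in red and WT cells in grey; each bar is 1 library and has no error. Joined rows stand between their numbers. Central paralogues carry the largest share of the signal, with Hoxc8 highest at 7.95 FPKM in Sptbn1-/- cells and 9.02 FPKM in WT cells. Paralogues 11 to 13 lie under 1 FPKM apart from Hoxa11 in WT cells, at 1.10 FPKM against 0.545 FPKM in Sptbn1-/- cells.

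The central paralogues, 4 to 8, which pattern the neck and thorax, held more of the Hox signal than paralogues 1 to 3 or 9 to 13. They made up 55.4% of the summed Hox FPKM in Sptbn1-/- cells and 53.7% in WT cells. The WT share was 49.8% without joined rows and 47.8% as summed log2(FPKM + 1). Paralogues 9 to 13 held 29.3% in Sptbn1-/- cells and 29.7% in WT cells, and paralogues 1 to 3 held 15.3% in Sptbn1-/- cells and 16.6% in WT cells. At the hindbrain end of the clusters Hoxb1 was listed at 0 in both libraries, and Hoxd1 stayed under 1 FPKM. At the other end Hoxb13 and Hoxc12 were listed at 0 in both libraries, and no row of paralogues 12 and 13 reached 1 FPKM.

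Within most paralogue groups the clusters kept one order in both libraries. Of 12 groups with more than 1 row, 8 had the same order, the rows described of groups 1 and 12 were all at 0 in Sptbn1-/- cells, and groups 10 and 13 had another order. In group 4 the order was Hoxc4, Hoxb4, Hoxd4 and Hoxa4, and in group 9 it was Hoxb9 (joined with Gm53), Hoxc9, Hoxd9 and Hoxa9. In group 8 Hoxc8 and Hoxd8 stood far above Hoxb8, which was at 0.776 FPKM in Sptbn1-/- cells and 0.605 FPKM in WT cells. In group 10, which specifies lumbar vertebrae, Hoxc10 was the highest row in Sptbn1-/- cells, at 4.28 FPKM against 3.52 FPKM in WT cells, and Hoxa10 the highest in WT cells, at 2.77 FPKM in Sptbn1-/- cells and 3.54 FPKM in WT cells. No replicate shows whether such neighbouring levels differ. Across the 35 rows, which are not independent and share the libraries, Spearman's rho between the libraries was 0.969.

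No measured Hox row differed 2-fold between the libraries. The difference of a row is the log2 ratio of its FPKM in Sptbn1-/- over WT cells, after 1 FPKM is added to each, and 0.741% of 11070 measured genes were 2-fold or more apart on this scale. The 19 measured Hox rows ranged from -0.30 to 0.35 and all lay within 1.5-fold, as did 10819 of the 11070 measured genes. Their median was -0.03, beside -0.05 over all measured genes. Below 0 were 10 of the 19 and above 0 were 9, where 63.1% of all measured genes lay below 0 and 36.9% above. All directions are on the deposited scale. Scaling the libraries to a common FPKM sum moves the median of all measured genes to 0.34 and leaves 1 Hox row below 0, so differences are best read relative to the median gene. With small RNAs, ribosomal RNA and outlying rows (5 FPKM or more in the higher library and over 100-fold apart) left out of the sums, the median gene was at -0.04, and 10 Hox rows were below 0 and 9 above. The authors' deposited table gave no measured Hox row a p-value under 0.05, beside 5.6% of all measured genes. The lowest p-value among them in the authors' deposited table was 0.184377, for Hoxc9, and those p-values hold no spread between cultures.

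**Figure D2:**
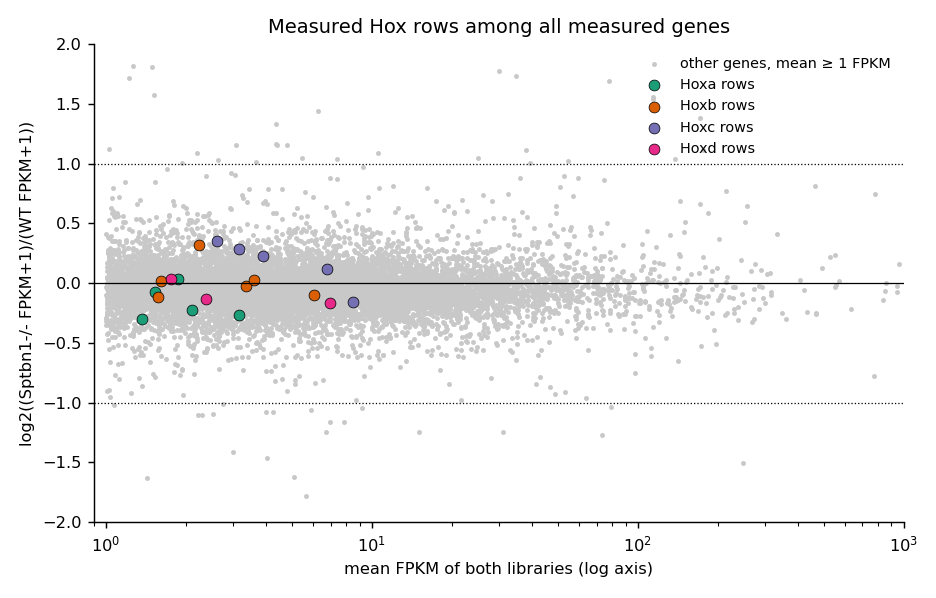
Each point is a gene with a mean of 1 FPKM or more, by its mean FPKM (log axis) and the log2 ratio of Sptbn1-/- over WT with 1 FPKM added; Hox rows are coloured by cluster, dotted lines mark 2-fold, and 38 genes outside the axes are not drawn. The Hox rows sit between -0.30 and 0.35, inside the cloud of the other genes.

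On the deposited scale the cluster medians lay on both sides of 0. Of 5 measured Hoxa rows 4 were lower in Sptbn1-/- cells, with a median log2 ratio of -0.23. In Hoxc 4 of 5 measured rows were higher there, with a median of 0.22. Over all measured genes 63.1% were lower and 36.9% higher, with a median of -0.05. Hoxd had 2 of 3 measured rows lower (median -0.14), and Hoxb was split 3 to 3 (median 0.00). On a common FPKM sum the medians of Hoxa, Hoxb and Hoxd turned positive, to 0.09, 0.32 and 0.25, and that of Hoxc was 0.59. With small RNAs, ribosomal RNA and outlying rows left out of the sums, they were -0.22 for Hoxa, 0.01 for Hoxb, -0.12 for Hoxd and 0.24 for Hoxc. The Hoxc median exceeded the Hoxa median by 0.45 on the log2 scale. This gap was between 0.25 and 0.60 in the 10 settings that gave both medians, the one used here among them. Rescaling the libraries moves both clusters much alike and no member name was repeated, so those settings could hardly change its sign. At a mean of 5 FPKM or more no Hoxa row was left and the gap could not be had. Summed FPKM of Hoxa were 10.6 in Sptbn1-/- cells and 13.1 in WT cells, 80.9% of the WT sum. For Hoxc they were 26.0 FPKM in Sptbn1-/- cells and 24.0 FPKM in WT cells, 108% of the WT sum. Rows of a cluster are neighbours on 1 chromosome and come from the same 2 libraries, so they are not replicates of a difference.

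**Figure D3:**
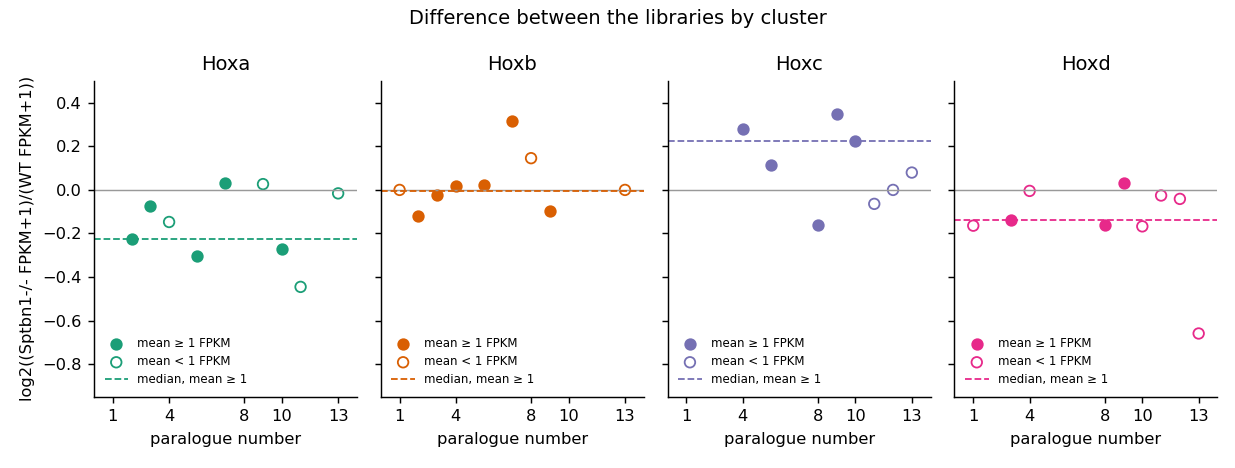
Log2 ratio of Sptbn1-/- over WT with 1 FPKM added, by paralogue number in each cluster; filled points are rows with a mean of 1 FPKM or more, open points those below, and the dashed line is the median of the filled points. The medians are -0.23 for Hoxa, 0.00 for Hoxb, 0.22 for Hoxc and -0.14 for Hoxd (on a common FPKM sum all are positive, with Hoxa still lowest and Hoxc highest), and the lowest point is Hoxd13 at -0.66.

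In the Hoxa cluster, Hoxa2, which gives the second branchial arch its identity, was at 1.86 FPKM in Sptbn1-/- cells and 2.35 FPKM in WT cells (-0.23). Hoxa3, needed for the thymus and parathyroid, was at 1.47 FPKM in Sptbn1-/- cells and 1.60 FPKM in WT cells (-0.07). The joined row Hoxa5,Hoxa6, of which Hoxa5 is needed for lung development, was the lowest measured Hox row by log2 ratio, at 1.12 FPKM in Sptbn1-/- cells and 1.61 FPKM in WT cells (-0.30). Hoxa10, a gene of the lumbar region and the uterus, had a log2 ratio of -0.27. Hoxa7 was the 1 measured Hoxa row above 0, at 1.90 FPKM in Sptbn1-/- cells and 1.84 FPKM in WT cells (0.03).

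In the Hoxc cluster, which in mammals has no paralogues 1 to 3, the highest ratio was that of Hoxc9, a gene that sets the thoracic pattern of motor neurons. It was at 3.04 FPKM in Sptbn1-/- cells and 2.17 FPKM in WT cells, a log2 ratio of 0.35 and the highest of the measured Hox rows. Hoxc4 was at 3.57 FPKM in Sptbn1-/- cells and 2.76 FPKM in WT cells (0.28), Hoxc10 at a log2 ratio of 0.22 and Hoxc5,Hoxc6 at 0.12. Hoxc8 was the 1 measured Hoxc row below 0 (-0.16). Over paralogues 9 to 13, the summed FPKM of Hoxc were 7.39 in Sptbn1-/- cells and 5.75 in WT cells. For the same paralogues of Hoxa the sums were 4.04 in Sptbn1-/- cells and 5.35 in WT cells, and for those of Hoxd 2.63 in Sptbn1-/- cells and 3.42 in WT cells.

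The medians of the measured Hoxb and Hoxd rows lay nearer to 0 than those of Hoxa and Hoxc, though single rows did not all do so. The measured Hoxb row farthest from 0 was Hoxb7, at 2.58 FPKM in Sptbn1-/- cells and 1.88 FPKM in WT cells (0.31). Hoxb2 and Hoxb3, hindbrain genes, were at -0.12 and -0.03, Hoxb4, known for its effect on blood stem cells, at 0.02 and Hoxb5,Hoxb6 at 0.02. Gm53,Hoxb9 was at -0.10. In Hoxd, Hoxd3, which shapes the first vertebrae, was at 2.22 FPKM in Sptbn1-/- cells and 2.54 FPKM in WT cells (-0.14). Hoxd8 was at -0.16 and Hoxd9 at 0.03. Hoxd13, under the measured limit and described below, was the Hox row farthest from 0, at -0.66.

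Seen along the body axis, the anterior paralogues 1 to 3 were lower in Sptbn1-/- cells in each of the 5 measured rows (Hoxa2, Hoxa3, Hoxb2, Hoxb3 and Hoxd3) and in Hoxd1, while on a common FPKM sum the 5 were higher. Of all measured genes 63.1% were lower, and with the median gene at 0 Hoxb3 was at 0.03, which leaves 4 of the 5 lower. The summed FPKM of paralogues 1 to 3 were 10.3 in Sptbn1-/- cells and 11.7 in WT cells, and the median log2 ratio of the 5 was -0.12. Paralogues 4 to 8 had 3 of 9 measured rows lower and a median of 0.02. Paralogues 9 to 13 had 2 of 5 measured rows lower and a median of 0.03. By RefSeq the span of Hoxb3 encloses Hoxb4 and the span of Hoxd3 encloses Hoxd4, so fragments may be divided between them.

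The 16 described Hox rows with a mean under 1 FPKM held the largest relative differences, and 3 of them (Hoxb1, Hoxb13 and Hoxc12) were listed at 0 in both libraries. Of the other 13, 10 were lower in Sptbn1-/- cells and 3 higher. This split became 6 to 7 on a common FPKM sum, where the share over all such genes was not computed. On the deposited scale, 54.9% of all 7024 genes under that limit and above 0 in either library were lower in Sptbn1-/- cells. Hoxc11, Hoxd1 and Hoxd12 were listed at 0 in Sptbn1-/- cells alone, as were 16.1% of those genes, and none of the 13 was listed at 0 in WT cells alone, as were 8.57% of those genes. In WT cells Hoxd1 was listed at 0.121 FPKM, Hoxc11 at 0.0454 FPKM and Hoxd12 at 0.0290 FPKM.

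Hoxd13, which patterns the digits and the genital tubercle, had the largest ratio of the Hox rows above 0 in both libraries. It was at 0.0712 FPKM in Sptbn1-/- cells and 0.692 FPKM in WT cells, 10.3% of the WT value, and a log2 ratio of -3.28 without an added FPKM. On the scale with 1 FPKM added the log2 ratio was -0.66. Its p-value in the authors' deposited table was 6.8896e-05. Its neighbour Hoxd12 was listed at 0 in Sptbn1-/- cells. At 0.0290 FPKM in WT cells, Hoxd12 was too low to show whether it differed likewise. Hoxd10 and Hoxd11, farther along the cluster, were nearer in level between the libraries than Hoxd13. Hoxd10, a gene of lumbar motor neurons, was at 0.507 FPKM in Sptbn1-/- cells and 0.693 FPKM in WT cells, and Hoxd11, which with Hoxa11 builds the forearm, at 0.259 FPKM in Sptbn1-/- cells and 0.282 FPKM in WT cells.

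Hoxa11, needed for the forearm, kidney and uterus, was at 0.545 FPKM in Sptbn1-/- cells and 1.10 FPKM in WT cells, 49.4% of the WT value. Hoxa11 and Hoxd13 were the 2 of 7 described Hox rows with a mean of 0.3 to under 1 FPKM whose FPKM ratio was at least 2-fold lower, and none of the 7 was 2-fold higher. On a common FPKM sum, Hoxd13 remained at least 2-fold lower, with a log2 ratio of -2.81, and Hoxa11 did not, at -0.55. On the deposited scale, 5.48% of all 2207 genes of that band above 0 in both libraries were at least 2-fold lower and 5.85% at least 2-fold higher. Of the 7, 5 were lower, as were 55.2% of the genes in the band. The other 5 were Hoxa4 (0.242 FPKM in Sptbn1-/- cells and 0.375 FPKM in WT cells), Hoxa9 (0.678 FPKM in Sptbn1-/- cells and 0.647 FPKM in WT cells), Hoxb8, Hoxd4 (0.550 FPKM in Sptbn1-/- cells and 0.554 FPKM in WT cells) and Hoxd10.

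**Figure D4:**
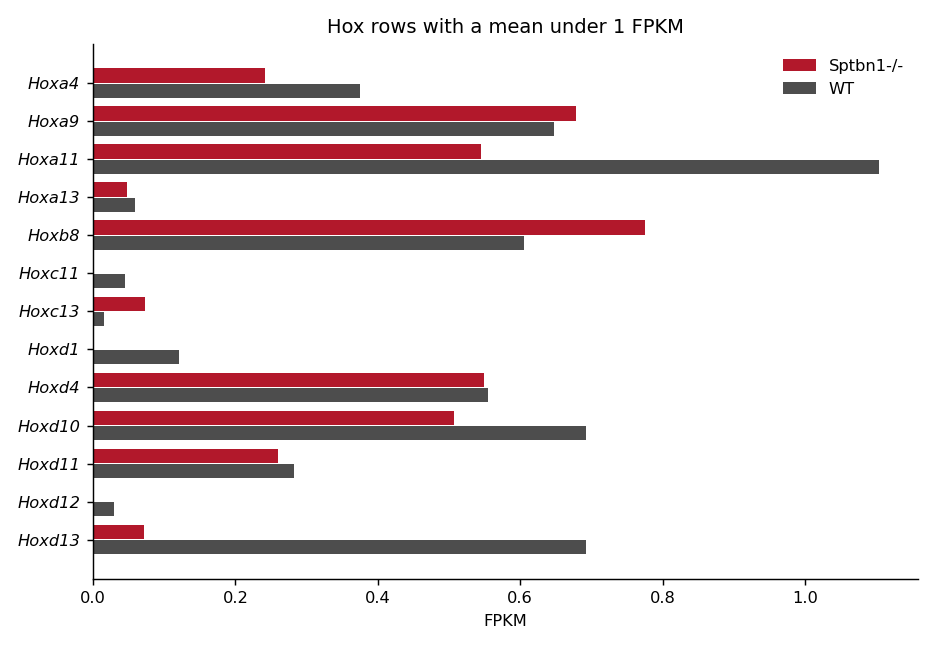
FPKM (linear axis) of the 13 described Hox rows with a mean under 1 FPKM that are above 0 in either library; the red bar above is Sptbn1-/- cells and the grey bar below WT cells, each 1 value with no error. Hoxd13 (0.0712 FPKM in Sptbn1-/- cells and 0.692 FPKM in WT cells) and Hoxa11 show the widest gaps, and Hoxb8, Hoxa9 and Hoxc13 are the rows higher in Sptbn1-/- cells.

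A p-value under 0.05 stood in the authors' deposited table for 3 of 32 described Hox rows above 0 in either library, beside 5.57% of all such genes. They were Hoxd13, Hoxd1 (0.0183616 in the authors' deposited table) and Hoxa11 (0.0404669). These 3 were under 1 FPKM on average and lower in Sptbn1-/- cells. Of the genes under that limit, 3.42% had such a p-value and were lower, and 2.09% had one and were higher. Rows this low rest on few fragments, whose number is not given in the sources used here. The commonest FPKM ratio of low rows was 1.61, so 1 fragment was worth that much more FPKM in Sptbn1-/- cells, which makes that library the shallower.

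Divided by that ratio, the values of 4 low rows gave ratios of small whole numbers of fragments, within 0.002 on the log2 scale and with numbers up to 10. Hoxc13, a gene of hair and nail, was at 0.0727 FPKM in Sptbn1-/- cells and 0.0150 FPKM in WT cells, a fragment ratio of 3 to 1. Hoxa13, which with Hoxd13 patterns the digits, was at 0.0480 FPKM in Sptbn1-/- cells and 0.0596 FPKM in WT cells, a ratio of 1 to 2. Hoxa4 gave 2 to 5 and Hoxd11 gave 4 to 7. These are the smallest such numbers, and multiples of them give the same ratio.

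Noncoding RNAs from the clusters were sparse. Of 9 listed rows found, 5 were at 0 in both libraries and the other 4 were lower in Sptbn1-/- cells. Of these 4, 3 had a mean under 1 FPKM. Among all genes this low and above 0 in either library, 54.9% were lower and 16.1% were at 0 in Sptbn1-/- cells alone. Of all measured genes 63.1% were lower. The Hoxa11 antisense RNA was at 0.0779 FPKM in Sptbn1-/- cells and 0.299 FPKM in WT cells. By RefSeq it overlaps Hoxa11, and since counting by strand is not stated, reads from the pair cannot be told apart. Hoxaas3 and Hoxd3os1, under older names in the table, were listed at 0 in Sptbn1-/- cells and at 0.0508 and 0.199 FPKM in WT cells. Mir10b, whose hairpin lies within the span of Hoxd4, was the only listed microRNA row above 0. It was at 2.30 FPKM in Sptbn1-/- cells and 3.40 FPKM in WT cells (-0.42), and a library of this kind does not measure the mature microRNA. Mir10a, in the Hoxb cluster, was listed at 0 in both. The mature sequences of the pair (RefSeq, GRCm38.p6; chr2:74726074-74726096 and chr11:96317186-96317208, both plus strand) are shown because they share their seed, bases 2 to 8, in capitals, and differ at 1 position.
mmu-miR-10b-5p: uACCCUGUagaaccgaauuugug
mmu-miR-10a-5p: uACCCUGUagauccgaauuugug

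Genes whose products act with or on Hox genes, and other regulators of limb and trunk mesenchyme, were read from 5 further lists. With 1 FPKM added, none of their measured genes was 2-fold apart, and by the plain FPKM ratio 1 was, the limb gene Tbx4. On a common FPKM sum the 5 medians were all positive, between 0.27 and 0.43, and with small RNAs, ribosomal RNA and outlying rows left out of the sums they lay between -0.15 and 0.05. HOX partners bind DNA together with HOX proteins, or, like geminin (Gmnn), bind HOX proteins and restrain them. Of 9 measured, 6 were lower in Sptbn1-/- cells and 3 higher, with a median of -0.17. Over all measured genes 63.1% were lower and the median was -0.05. Meis3 was at 5.01 FPKM in Sptbn1-/- cells and 6.15 FPKM in WT cells (-0.25), Pknox1 at -0.28 and Pknox2 at -0.37, while Gmnn was at 6.96 FPKM in Sptbn1-/- cells and 5.24 FPKM in WT cells (0.35). Trithorax genes, which keep Hox genes active, had 5 of 10 lower and a median of -0.01, with Rbbp5 at -0.27, Ash2l at 0.18, Wdr5 at 0.18 and the demethylase gene Kdm6b at 0.16. The authors' deposited table gave 2 of these 10 a p-value under 0.05, beside 5.6% of all measured genes. They were Kdm6b (0.036408) and Men1 (0.010279, at a log2 ratio of -0.09), which encodes a partner of the MLL proteins. Rbbp5, Ash2l and Wdr5 differed more than either and had higher p-values in the authors' deposited table. That table gave no p-value under 0.05 to the measured HOX partners, Polycomb genes or inputs to Hox onset. Polycomb genes, which keep Hox genes silent, had 12 of 16 lower and a median of -0.05, near that of all measured genes. Among them Eed was at -0.34, Aebp2 at -0.32, Pcgf2 at -0.20 and the methyltransferase gene Ezh2 at 0.18.

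Of 11 genes read that start Hox expression in the embryo, 5 (Cdx1, Cdx2, Cdx4, Fgf8 and Wnt3a) were listed at 0 in both libraries and 2 were above 0 but under the measured limit. The 4 measured ones had 2 lower, 2 higher and a median of 0.02. They were the retinoic acid receptor genes Rara (0.12) and Rarg (-0.08), Egr2 (0.28) and Gdf11 (-0.18). The list of other regulators of limb and trunk mesenchyme had 5 of 10 measured genes lower, 5 higher and a median of 0.04. Tbx4, a hindlimb gene, was at 0.639 FPKM in Sptbn1-/- cells and 1.41 FPKM in WT cells (-0.56), a plain log2 FPKM ratio of -1.14 that became -0.67 on a common FPKM sum, and the authors' deposited table gave it a p-value of 0.0111112. Barx1, a homeobox gene of stomach mesenchyme, was at 2.25 FPKM in Sptbn1-/- cells and 1.20 FPKM in WT cells (0.56), and the authors' deposited table gave it a p-value of 0.0435014. En1, a homeobox gene of ventral limb skin and dermis, was at 0.31. All 8 genes on the list of Otx and forebrain homeobox genes were below the measured limit, with summed FPKM of 0.241 in Sptbn1-/- cells and 0.309 in WT cells.

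**Figure D5:**
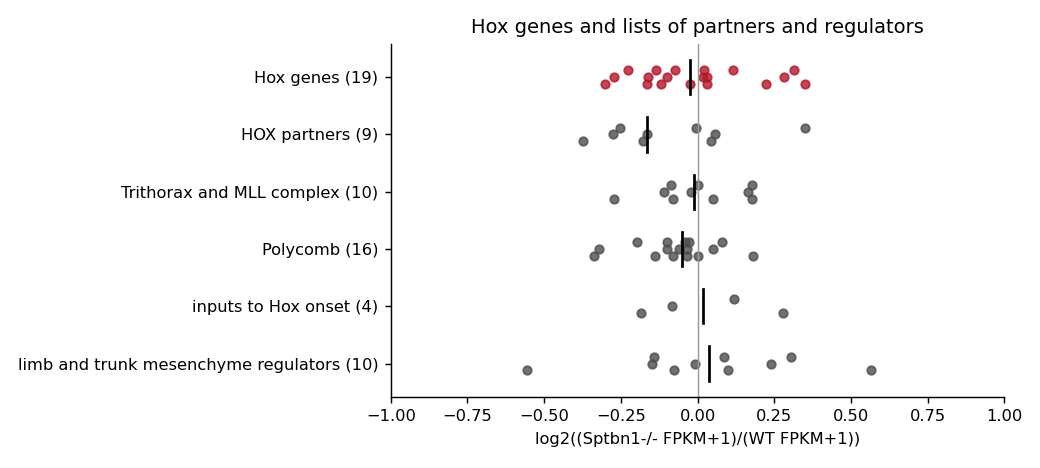
Each point is a gene with a mean of 1 FPKM or more, by its log2 ratio of Sptbn1-/- over WT with 1 FPKM added, for the Hox rows (red) and 5 lists (grey), with the number of genes in brackets; the bar is the median. Medians run from -0.17 for HOX partners to 0.04 for limb and trunk regulators, the Hox median is -0.03, on the deposited scale (all positive on a common FPKM sum), and the lowest and highest points are Tbx4 at -0.56 and Barx1 at 0.56.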

How the data were processed

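RNA sequencing of 2 libraries, 1 per genotype, was analysed from the deposited table. By TRIZOL total RNA was obtained, per the labels' protocols, and 1 µg per library entered the Illumina TruSeq RNA kit. Per the submitters' processing notes and the series' design text, FastQC and Trimmomatic were run, TopHat2 2.0.10 aligned reads to NCBI mouse build 37.2, Cufflinks quantified genes and Cuffdiff2 compared the libraries. Per the file headers, the authors deposited FPKM and a p-value per gene. One FPKM header names Sptbn1-/-, and the other carries both a wild-type and a -/- mark and was taken as wild type from that library's title, so directions rest on this reading. An FPKM of 0 may be a failed estimate.

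From these, log2 ratios with a pseudocount of 1 FPKM were computed (Python 3.11.15, pandas 2.3.3), with the row of highest mean for a repeated name. FPKM summed to 279927 in Sptbn1-/- cells and 386567 in WT cells. Total fragments are not given, so no interval was computed, and the ratio of low rows came from 3081 rows with a mean under 0.3 FPKM. The calculation was checked on simulated data. The members, gene lists and measured limit were chosen with earlier results of these data known. Named were all members, up to 4 measured genes per list with the largest differences, Sptbn1, and others chosen after their values were seen (among them genes listed at 0 and low noncoding RNAs). One listed RNA, 2610203C20Rik, is by RefSeq outside the clusters and was left out. One Hox row and 4 listed genes are not reported here. Symbols and sequences are from RefSeq GRCm38.p6, another build than that of the reads.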

Additional observations from a re-analysis of the deposited data

How the results depend on the processing

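No paired analysis was possible because each genotype has 1 library, and for the same reason no library could be left out. With no replicate spread, a log2 value is said to move when it changed by 0.1 or more, a share by 5 percentage points and a count by over 1.5 times. Of 299 alternative values 244 stayed within these limits, and 31 of the 55 that moved did so on a common FPKM sum. Many of the 244 could hardly move, so their number does not measure how stable the results are. No member name was repeated to be summed. Setting the median gene to 0, a common upper quartile and the sum without small RNAs, ribosomal RNA and outlying rows each shifted log2 ratios by less than 0.1. Scaling to a common FPKM sum of all rows moves the median of measured genes to 0.34, the Hox median to 0.31 and the counts to 1 below and 18 above 0. It puts the list medians at 0.27 for HOX partners, 0.35 for Trithorax, 0.33 for Polycomb, 0.43 for inputs to Hox onset and 0.39 for limb and trunk regulators. With small RNAs, ribosomal RNA and outlying rows left out of the sums, the median of measured genes was -0.04 and 0 of 32 values moved. With a mean of 5 FPKM or more, 3 Hox rows were below and 1 above 0 (median -0.13), the HOX partner median was 0.019, that of limb and trunk regulators -0.11 and the Hoxc median -0.02, with no Hoxa row left. With a mean of 0.3 FPKM or more the median of inputs to Hox onset was 0.12, and with no filter 20 Hox rows were below 0. Without joined names, paralogues 4 to 8 held 51.3% of the Hox FPKM in Sptbn1-/- cells and 49.8% in WT cells, Hoxb held 19.5% of the Hox FPKM in Sptbn1-/- cells and 17.5% in WT cells, Hoxd 23.8% in Sptbn1-/- cells and 26.9% in WT cells, and paralogues 1 to 3 20.6% in Sptbn1-/- cells and 22.4% in WT cells. Summed as log2(FPKM + 1), Hoxa held 21.6% in Sptbn1-/- cells and 24.0% in WT cells, Hoxc 30.5% in Sptbn1-/- cells and 27.5% in WT cells, and paralogues 4 to 8 50.1% in Sptbn1-/- cells and 47.8% in WT cells. No setting put a Hox row that it kept 2-fold apart. The settings that keep rows with a mean under 1 FPKM add 1 FPKM, which shrinks the ratios of such rows. By the plain FPKM ratio Hoxd13 was at 10.3% and Hoxa11 at 49.4% of the WT value. The ratios without an added FPKM and the fragment ratios were chosen after seeing the data.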
